A study of Mus musculus with 6 samples.

Results

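The genes described here mark macrophages, monocytes and neutrophils, the myeloid cells of the liver, and comprise 35 of the 22274 genes in the deposited table. They were chosen by symbol, and each symbol occurred once. By role they fall into 11 Kupffer cell genes, 7 monocyte and recruited myeloid genes, 4 neutrophil genes, 11 genes shared by phagocytes or all leukocytes, and 2 genes of lipid-associated macrophages. The tested livers came from C57 mice infected with Ad-Dyrk1b, an adenovirus that overexpresses mouse Dyrk1b, and the controls from C57 mice infected with Ad-EGFP, with 3 libraries in each group. Both groups therefore carried an adenovirus, and no uninfected liver was analysed here. Neither the labels nor the files state the virus dose, the time after infection, or the sex and age of the animals. Whether each library is a different animal is not said in the labels. The p-values below therefore reflect only how far these libraries vary, and part of that variation may be technical.

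Kupffer cells are the resident macrophages of the liver sinusoids. They clear particles, dying cells, aged red cells and bacteria through scavenger, complement and Fc receptors, and take up much of an adenovirus that reaches the blood. Classical monocytes, marked by Ly6C, enter the liver from the blood during inflammation and can become macrophages there, while neutrophils are short-lived cells that carry the calcium-binding proteins S100A8 and S100A9 in their cytosol. Several proteins encoded by the shared genes work together: the Fc gamma receptors signal through the adaptor encoded by Fcer1g, and TREM2 signals through the adaptor encoded by Tyrobp.

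Dyrk1b stood at 150, 270.0 and 248 CPM (counts scaled to library size) in Ad-Dyrk1b livers and at 9.04, 11.1 and 9.61 CPM in Ad-EGFP livers, which fits the labels of all 6 libraries. Library totals ranged from 17326516 to 20024888 counts. Of 13201 genes that passed the filter on low counts, 1607 were called at an adjusted p under 0.05 by edgeR's quasi-likelihood test, 972 of them higher in Ad-Dyrk1b livers and 635 lower. This balance depended on the scaling: without TMM scaling, which moved the median log2 fold change of all genes by -0.0846, 694 were higher and 1051 lower, and limma-trend on log2(FPKM + 1), with a shift of -0.0587, called 566 higher and 712 lower. The library sizes behind CPM were scaled by TMM, and CPM values serve to compare libraries. FPKM values, which the authors scaled to gene length, serve to compare genes. Hepatocyte genes, which define the labelled tissue, summed to 32303 to 39166 FPKM over 6 genes in Ad-Dyrk1b livers and to 39096 to 41483 FPKM in Ad-EGFP livers.

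In Ad-Dyrk1b livers 5 of the 33 tested myeloid genes were higher and 0 were lower (edgeR, adjusted p under 0.05), and DESeq2 also called 0 lower. Among all tested genes 7.36% were higher and 4.81% were lower by the same test. The 5 genes were Msr1 (a scavenger receptor), Plac8 (a small cysteine-rich protein of monocytes and other leukocytes), Fcgr1 (the high-affinity IgG receptor), Cd68 (a lysosomal glycoprotein of phagocytes) and Ly6c2 (a surface antigen of classical monocytes). Their log2 fold changes lay between 0.47 and 0.90. Msr1, Plac8 and Fcgr1 stayed called when any 1 library was left out, while the calls for Cd68 and Ly6c2 did not. With no adjustment of p, 11 of the 33 passed 0.05 as higher and 0 as lower, against 14.9% of all tested genes as higher. The remaining members, Timd4 and Ly6g, had too few counts to be tested.

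**Figure D1:**
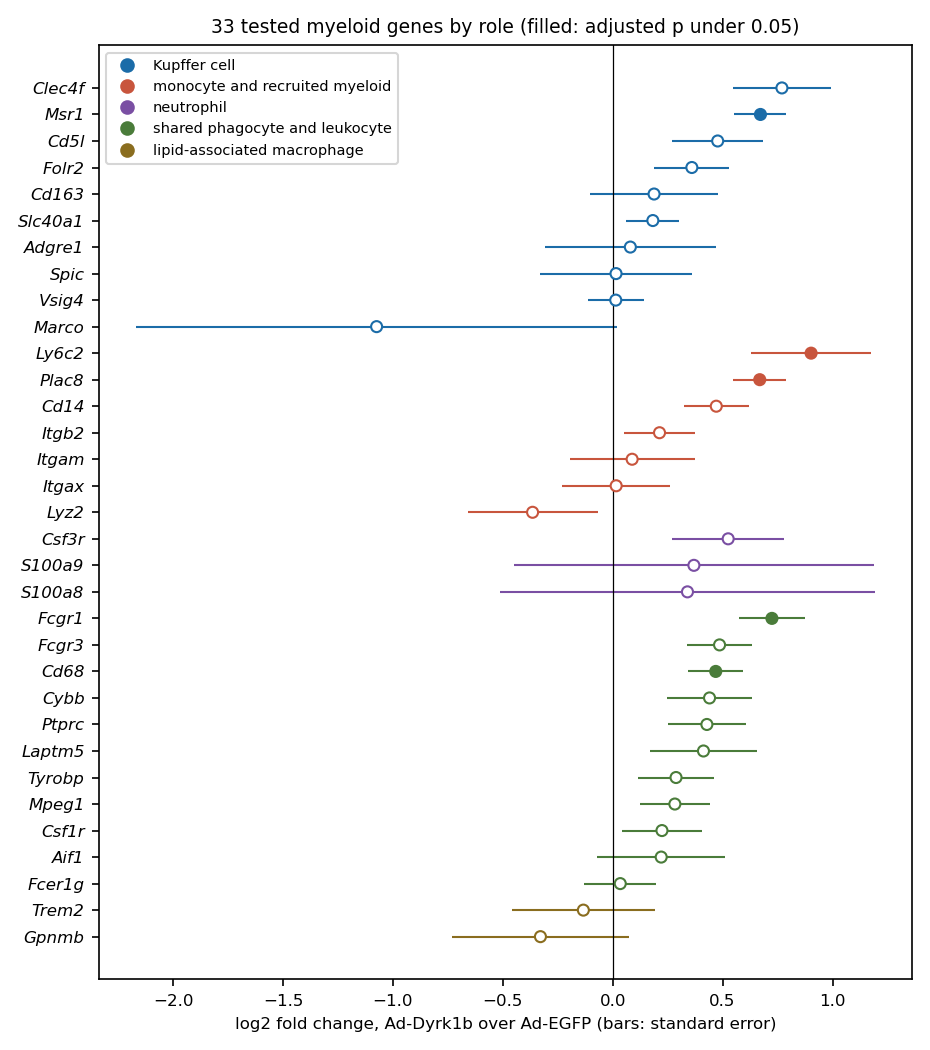
Log2 fold change of each tested gene, Ad-Dyrk1b over Ad-EGFP, on the horizontal axis, with genes grouped by role down the page. Bars are standard errors computed from edgeR's fitted coefficient and F statistic, and filled points passed an adjusted p under 0.05. The 5 filled points lie between 0.47 and 0.90, and Marco, S100a8 and S100a9 have the widest bars.

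The log2 fold change was above 0 in 29 of the 33 genes, with a median of 0.29, against 49.4% of all tested genes and a median of -0.00498. This count was 23 without Ad-EGFP replicate 1, where 49.5% of all tested genes were above 0, and 24 without Ad-Dyrk1b replicate 3, where 48.6% were. It was 24 with library sizes left without TMM scaling, where 39.1% of all tested genes were above 0. Ad-EGFP replicate 1 held the lowest CPM of the 6 libraries for 23 of the 33 genes, while it was the lowest for 19.9% of all tested genes. Without that library the median was 0.12, and 3 genes were called, the same 3 as without Ad-Dyrk1b replicate 1 or without Ad-Dyrk1b replicate 2. The median was 0.44 without Ad-EGFP replicate 3. Groups did not overlap in 11 of the 33 genes, all with the Ad-Dyrk1b libraries above, against 16.8% of all tested genes with that arrangement and 16.7% with the Ad-Dyrk1b libraries below. These are bulk libraries of liver tissue, in which more cells of a type and more RNA per cell cannot be told apart.

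**Figure D2:**
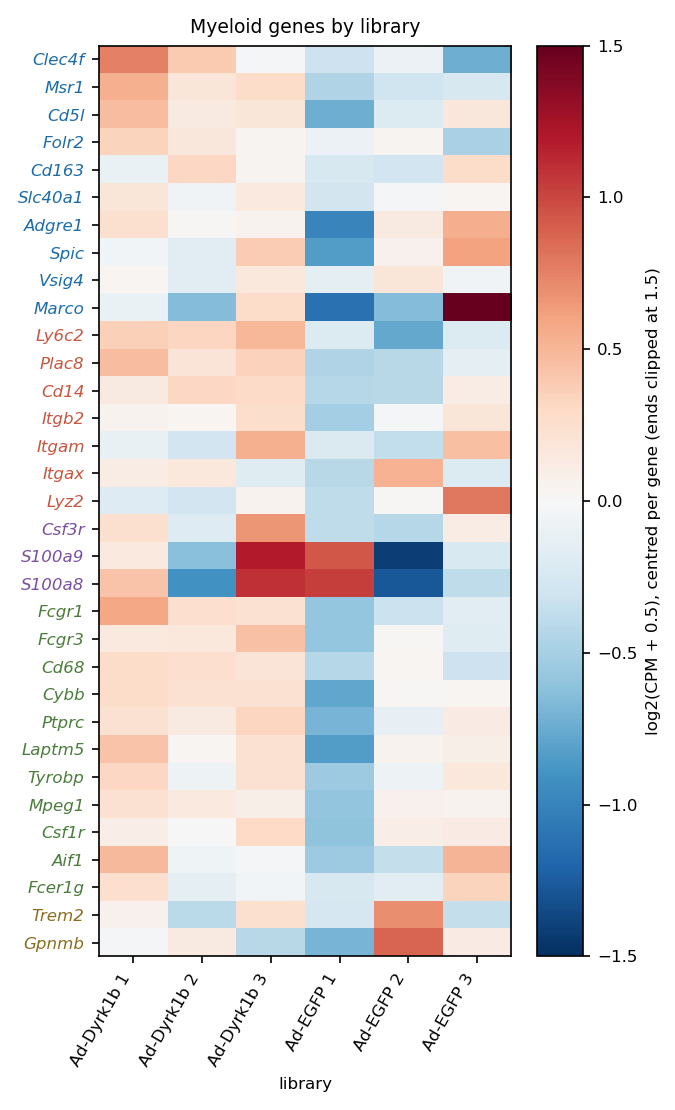
Each row is a gene and each column a library. The colour gives log2(CPM + 0.5) after subtraction of the gene's mean over the 6 libraries, with ends clipped at 1.5, and gene names are coloured by role. Ad-EGFP replicate 1 is low for most genes, Marco is high in Ad-EGFP replicate 3, and S100a8 and S100a9 are high in Ad-Dyrk1b replicate 3 and Ad-EGFP replicate 1.

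Among Kupffer cell genes 1 of 10 tested was called, and the median log2 fold change was 0.19. That median was 0.09 without Ad-EGFP replicate 1 and 0.44 without Ad-EGFP replicate 3. The called gene was Msr1, which encodes class A scavenger receptor 1, a receptor for modified lipoproteins and bacterial surfaces (gene ENSMUSG00000025044, chromosome 8, 39581685 to 39642673, minus strand, mm10). Msr1 reached 57.9, 45.4 and 48.5 CPM in Ad-Dyrk1b livers and 29.1, 32.3 and 33.8 CPM in Ad-EGFP livers. The lowest Ad-Dyrk1b library lay above the highest Ad-EGFP library. The log2 fold change of Msr1 was 0.67 ± 0.12 (SE), or 1.59-fold, with edgeR adjusted p = 0.00333 and an adjusted p of 0.00502 to 0.0163 when 1 library was left out.

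Clec4f, a C-type lectin that in the mouse is nearly restricted to Kupffer cells, had 184, 143 and 108 CPM in Ad-Dyrk1b livers and 87.8, 102 and 65.2 CPM in Ad-EGFP livers. The groups did not overlap, although the nearest libraries, at 108 and 102 CPM, were close. Its log2 fold change of 0.77 ± 0.22 was not called by edgeR (adjusted p = 0.0605). DESeq2 called it (adjusted p = 0.00101), as did edgeR with the replicate number as a block (adjusted p = 0.00402). With 1 library left out, edgeR called it only without Ad-Dyrk1b replicate 3 (adjusted p = 0.0100), in a range of 0.0100 to 0.160.

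Vsig4, the complement receptor of Kupffer cells, showed nearly equal levels. It had 32.7, 28.2 and 35.8 CPM in Ad-Dyrk1b livers and 28.8, 36.3 and 30.7 CPM in Ad-EGFP livers, a log2 fold change of 0.01 ± 0.13 (adjusted p = 0.958, edgeR). The ratio of Clec4f to Vsig4, taken within each library from FPKM, was 3.26, 2.94 and 1.74 in Ad-Dyrk1b livers and 1.77, 1.63 and 1.23 in Ad-EGFP livers.

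Adgre1, which encodes the macrophage antigen F4/80, had 52.5, 45.0 and 45.9 CPM in Ad-Dyrk1b livers and 21.97, 48.6 and 65.1 CPM in Ad-EGFP livers. The Ad-EGFP libraries spanned both sides of the Ad-Dyrk1b range, and the log2 fold change was 0.08 ± 0.39 (adjusted p = 0.915, edgeR). Spic, a transcription factor of iron-recycling macrophages, had the same arrangement, with 7.199, 6.58 and 9.82 CPM in Ad-Dyrk1b livers and 3.94, 7.82 and 11.6 CPM in Ad-EGFP livers.

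Marco, another class A scavenger receptor, had 34.8, 23.5 and 45.3 CPM in Ad-Dyrk1b livers and 16.9, 23.5 and 178 CPM in Ad-EGFP livers. Ad-EGFP replicate 3 alone stood far above the other libraries, and it was the highest library also for Adgre1, Spic, Lyz2, Fcer1g and Aif1. The log2 fold change of Marco was -1.07 ± 1.09 (adjusted p = 0.589, edgeR), and without Ad-EGFP replicate 3 it was 0.77 (adjusted p = 0.155, edgeR). Within libraries, the ratio of Marco to Vsig4 in FPKM was 0.855, 0.619 and 0.967 in Ad-Dyrk1b livers and 0.435, 0.482 and 4.65 in Ad-EGFP livers.

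Cd5l, which encodes a secreted protein of tissue macrophages that binds circulating IgM, was the most abundant of the 35 genes per unit length, at 244 ± 42.4 FPKM in Ad-Dyrk1b livers and 186 ± 59.1 FPKM (SD, n = 3 per group) in Ad-EGFP livers. Its log2 fold change was 0.48 ± 0.21 (adjusted p = 0.167, edgeR) and passed when Ad-EGFP replicate 3 was left out (adjusted p = 0.0360, edgeR) but not when any of the other 5 libraries was. Slc40a1, the iron exporter ferroportin, which hepatocytes also express, came next at 136 ± 16.5 FPKM in Ad-Dyrk1b livers and 127 ± 16.2 FPKM (SD, n = 3 per group) in Ad-EGFP livers. Slc40a1 had a log2 fold change of 0.18 ± 0.12 (adjusted p = 0.344, edgeR). Folr2, a folate receptor of resident macrophages, and Cd163, the receptor for haemoglobin bound to haptoglobin, had log2 fold changes of 0.36 ± 0.17 and 0.19 ± 0.29 and were not called. Timd4, a receptor for phosphatidylserine on long-lived Kupffer cells, had 4, 12 and 8 counts in Ad-Dyrk1b livers and 7, 5 and 13 counts in Ad-EGFP livers, so a difference was not detectable at this depth.

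**Figure D3:**
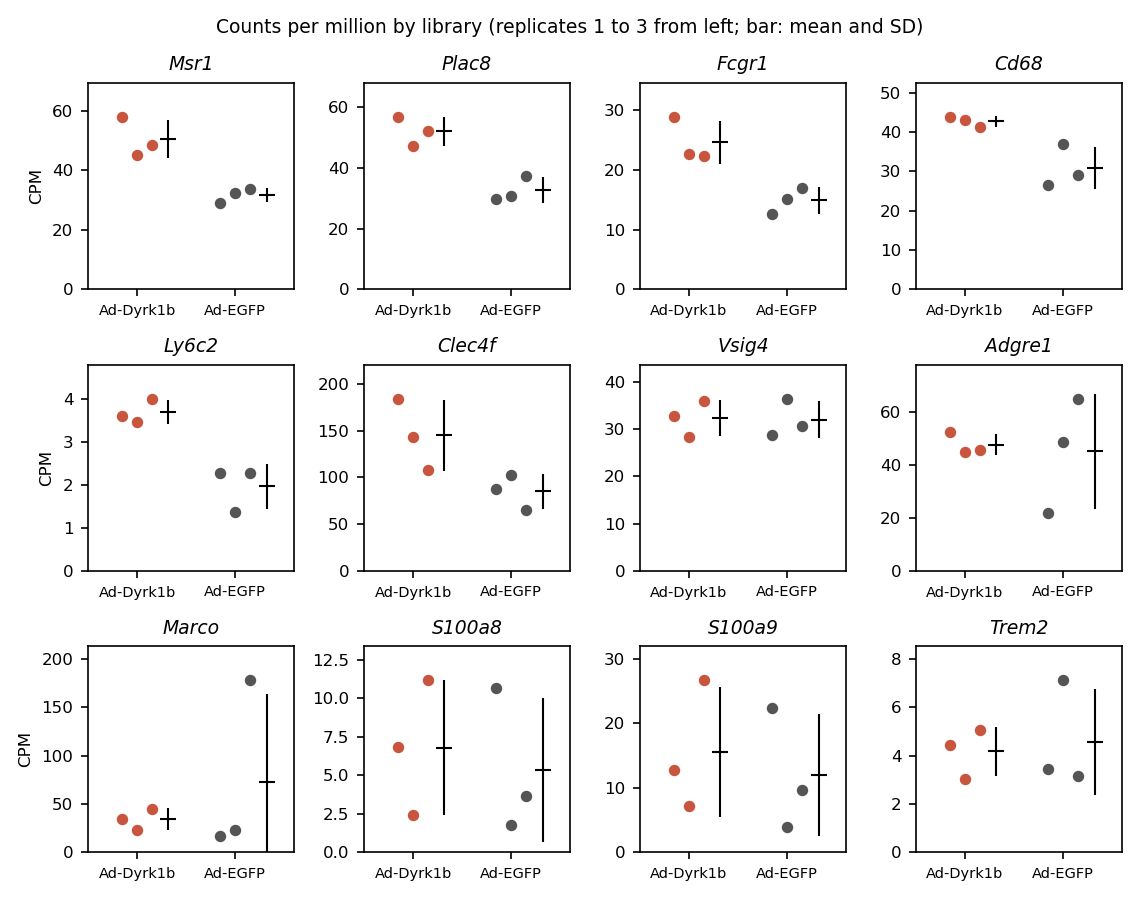
CPM of 12 genes in each library, Ad-Dyrk1b at the left and Ad-EGFP at the right of each panel, with replicates 1 to 3 from left to right. The bar beside the points gives the mean and SD over 3 libraries, cut at 0 for Marco in Ad-EGFP. Msr1, Plac8, Fcgr1, Cd68 and Ly6c2 do not overlap between groups, whereas Vsig4, Adgre1, Marco, S100a8, S100a9 and Trem2 do.

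Other genes known from Kupffer cells moved in both directions. Of 14 such genes, all tested, 4 were higher and 1 was lower, with a median log2 fold change of 0.30. Ccl24, an eosinophil-attracting chemokine, rose by 0.83 ± 0.18 (adjusted p = 0.00989, edgeR), Fcna, the lectin ficolin A, by 0.45 ± 0.10 (adjusted p = 0.0118, edgeR) and Siglec1, a sialic acid-binding receptor of macrophages, by 0.84 ± 0.19 (adjusted p = 0.0147, edgeR). Siglec1 was no longer called when Ad-Dyrk1b replicate 1, Ad-Dyrk1b replicate 2 or Ad-EGFP replicate 3 was removed (edgeR adjusted p up to 0.0594). The fourth gene was Il18bp, which encodes a soluble inhibitor of interleukin 18. C6, a complement component that hepatocytes also make, fell by 0.85 ± 0.14 (adjusted p = 0.00265, edgeR). It had 28.2, 37.2 and 26.9 CPM in Ad-Dyrk1b livers and 48.7, 63.8 and 54.4 CPM in Ad-EGFP livers.

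Among monocyte and recruited myeloid genes 2 of 7 were called, and the median log2 fold change was 0.21. It was 0.040 without Ad-EGFP replicate 1 and 0.13 without Ad-Dyrk1b replicate 3, while it was 0.37 without Ad-EGFP replicate 2 and 0.40 without Ad-EGFP replicate 3. Plac8 (gene ENSMUSG00000029322, chromosome 5, 100553725 to 100572245, minus strand, mm10) had 56.7, 47.3 and 52.3 CPM in Ad-Dyrk1b livers and 30.0, 30.8 and 37.6 CPM in Ad-EGFP livers. All Ad-Dyrk1b libraries lay above all Ad-EGFP libraries, and the log2 fold change was 0.67 ± 0.12, or 1.59-fold (adjusted p = 0.00366, edgeR). With 1 library left out its adjusted p was 0.00477 to 0.0174. Plac8 was also the most abundant gene of this group after Lyz2 per unit length, at 68.2 ± 9.15 FPKM in Ad-Dyrk1b livers and 45.4 ± 6.26 FPKM (SD, n = 3 per group) in Ad-EGFP livers.

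Ly6c2 (chromosome 15, 75108158 to 75111970, minus strand, mm10) was scarce, with 70, 65 and 69 counts in Ad-Dyrk1b libraries and 41, 25 and 41 counts in Ad-EGFP libraries. The groups did not overlap, and the log2 fold change was 0.90 ± 0.27, or 1.87-fold (adjusted p = 0.0494, edgeR). Leaving out any 1 of the 6 libraries ended the call (edgeR adjusted p = 0.0716 to 0.140), as did leaving out TMM scaling (adjusted p = 0.0676, edgeR). Its near-identical neighbour Ly6c1, which endothelial cells express, had a log2 fold change of 0.78 ± 0.31 (adjusted p = 0.117, edgeR). The sources used here do not say how reads matching both copies were counted, which leaves the value of each copy uncertain.

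Cd14, the co-receptor for bacterial lipopolysaccharide, had 34.0, 38.7 and 37.9 CPM in Ad-Dyrk1b livers and 23.0, 23.1 and 33.7 CPM in Ad-EGFP livers. The groups did not overlap, with a log2 fold change of 0.47 ± 0.15 that edgeR did not call (adjusted p = 0.0581). It was called without Ad-EGFP replicate 3, where the log2 fold change was 0.68 (adjusted p = 0.0104, edgeR), and by DESeq2 and limma-voom. The edgeR test also called it without the filter on low counts and with the replicate block.

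Lyz2, lysozyme M of macrophages and neutrophils, had 90.7, 84.5 and 107 CPM in Ad-Dyrk1b livers and 79.4, 105 and 179 CPM in Ad-EGFP livers. Its log2 fold change was -0.36 ± 0.30 (adjusted p = 0.473, edgeR) and was 0.030 without Ad-EGFP replicate 3, the library in which Marco was also high. The integrin genes Itgam (CD11b), Itgax (CD11c) and Itgb2 (their common beta chain) had log2 fold changes of 0.09 ± 0.28, 0.02 ± 0.25 and 0.21 ± 0.16 and were not called. Itgam and Itgax lie side by side on chromosome 7, and Itgam overlaps the annotated gene Gm49368 on the same strand. Folr2 overlaps the antisense gene Gm10602, and Csf1r overlaps Hmgxb3 on the opposite strand. The strand setting of the counting is not stated, so reads of Folr2 and Csf1r may include some of their partners. For Itgam, whose partner lies on the same strand, strand cannot separate the reads under any setting.

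Among 12 further monocyte genes, all tested, 2 were higher and 0 lower (edgeR), with a median log2 fold change of 0.43. Before adjustment 3 were higher and 0 lower at p under 0.05. Ms4a4c, a membrane protein of monocytes, rose by 1.43 ± 0.24 (adjusted p = 0.00249, edgeR), with 12.0, 8.72 and 6.51 CPM in Ad-Dyrk1b livers and at most 3.56 CPM in each Ad-EGFP liver. The authors' FPKM values for Ms4a4c gave a smaller difference, with 11.4, 9.40 and 6.49 FPKM in Ad-Dyrk1b livers and 4.31, 5.83 and 6.51 FPKM in Ad-EGFP livers. In FPKM the groups of this gene overlapped, and limma-trend on log2(FPKM + 1) gave 0.61 and did not call it (adjusted p = 0.0758).

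Among neutrophil genes edgeR and DESeq2 called 0 of 3 tested, with 0 also at an unadjusted p under 0.05, and libraries of the same group lay far apart. S100a8 and S100a9, which encode the subunits of calprotectin and are neighbours on chromosome 3, had the same high and low libraries. S100a9 had 12.8, 7.22 and 26.6 CPM in Ad-Dyrk1b livers and 22.3, 3.99 and 9.67 CPM in Ad-EGFP livers. S100a8 had 6.84, 2.41 and 11.2 CPM in Ad-Dyrk1b livers and 10.7, 1.75 and 3.67 CPM in Ad-EGFP livers. Ad-Dyrk1b replicate 3 and Ad-EGFP replicate 1 were the high libraries for both genes, and the highest library exceeded the lowest 6.66-fold for S100a9 and 6.37-fold for S100a8. In contrast, the ratio of S100a9 to S100a8 in FPKM stayed between 1.77 and 2.85 in all 6 libraries. Log2 fold changes were 0.37 ± 0.82 for S100a9 and 0.34 ± 0.85 for S100a8 (edgeR adjusted p = 0.811 and 0.833), and both turned negative without Ad-Dyrk1b replicate 3 or without Ad-EGFP replicate 2.

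Csf3r, the receptor for granulocyte colony-stimulating factor, had 7.35, 5.30 and 9.99 CPM in Ad-Dyrk1b livers and 4.60, 4.43 and 6.67 CPM in Ad-EGFP livers. Its log2 fold change was 0.53 ± 0.25 (adjusted p = 0.195, edgeR). Ly6g, the surface antigen that defines mouse neutrophils, had 11, 0 and 11 counts in Ad-Dyrk1b libraries and 7, 1 and 2 counts in Ad-EGFP libraries, which is too few to test. Centred per gene, the 3 tested neutrophil genes had a mean log2 CPM of 0.30, -0.61 and 1.03 in Ad-Dyrk1b livers and 0.56, -1.12 and -0.17 in Ad-EGFP livers. A separate list of neutrophil granule and receptor genes, of which 9 could be tested and edgeR and DESeq2 called 0 (0 also at an unadjusted p under 0.05), had levels of 0.38, -0.67 and 1.02 in Ad-Dyrk1b livers and 0.56, -1.02 and -0.26 in Ad-EGFP livers. Both lists thus ranked the libraries in the same order.

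**Figure D4:**
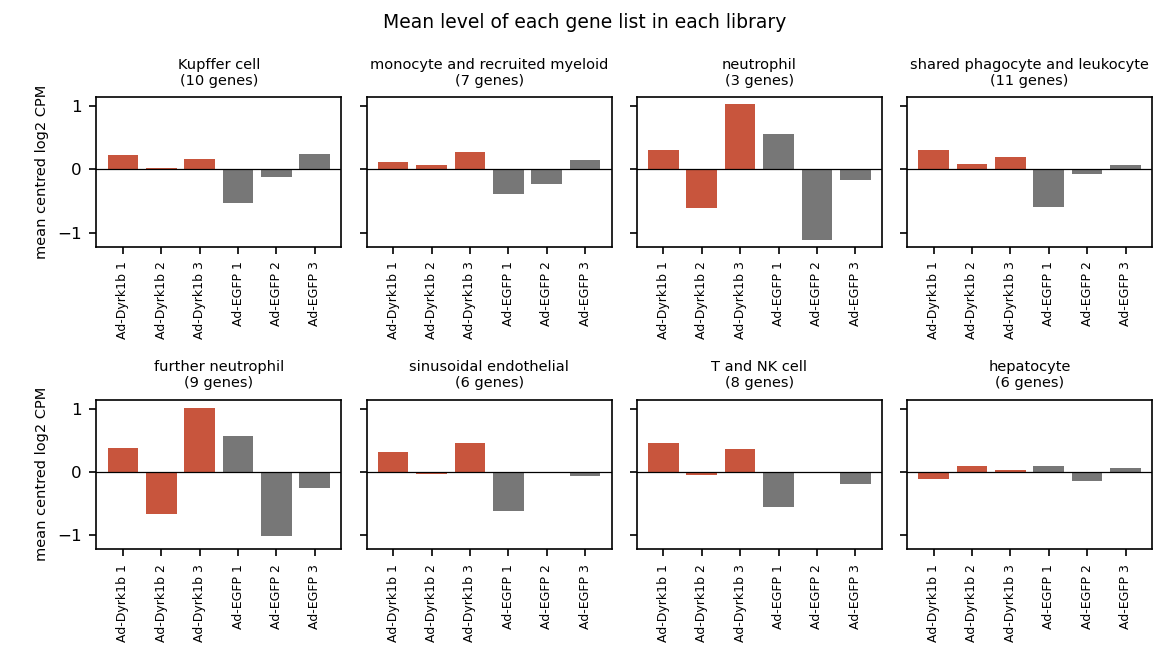
Bars give the mean log2 CPM of each list in each library, centred over the 6 libraries for each gene, with Ad-Dyrk1b libraries in red at the left and Ad-EGFP libraries in grey. Neutrophil genes and further neutrophil genes share a pattern of high and low libraries, and Ad-EGFP replicate 1 is lowest for the Kupffer cell, monocyte, shared, endothelial, and T and NK cell lists but not for neutrophil or hepatocyte genes.

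All 11 shared phagocyte and leukocyte genes had a log2 fold change above 0, and 2 were called. The median was 0.41, and it was 0.17 without Ad-EGFP replicate 1, which had the lowest CPM for all 11. With library sizes left without TMM scaling, or in limma-trend on FPKM, the log2 fold change of Fcer1g was below 0, at -0.046 and -0.036, where the same settings moved the median of all genes by -0.0846 and -0.0587. Fcgr1 (gene ENSMUSG00000015947, chromosome 3, 96282909 to 96293969, minus strand, mm10) had 28.8, 22.7 and 22.4 CPM in Ad-Dyrk1b livers and 12.6, 15.2 and 17.0 CPM in Ad-EGFP livers. The groups did not overlap, and the log2 fold change was 0.72 ± 0.15, or 1.65-fold (adjusted p = 0.00850, edgeR). With 1 library left out the adjusted p was 0.0124 to 0.0399.

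Cd68 (gene ENSMUSG00000018774, chromosome 11, 69664213 to 69666153, minus strand, mm10) had 43.7, 43.1 and 41.2 CPM in Ad-Dyrk1b livers and 26.6, 36.8 and 29.1 CPM in Ad-EGFP livers. The Ad-Dyrk1b libraries were close together and above every Ad-EGFP library. Cd68 was 1.38-fold higher, a log2 fold change of 0.47 ± 0.13 (adjusted p = 0.0304, edgeR), and leaving out any library other than Ad-EGFP replicate 2 ended the call (range of edgeR adjusted p, 0.00790 to 0.119). Without TMM scaling its adjusted p was 0.0800 (edgeR), and limma-trend on FPKM did not call it either. Fcgr3, a low-affinity activating IgG receptor, had 49.8, 49.97 and 60.8 CPM in Ad-Dyrk1b livers and 29.9, 45.4 and 39.3 CPM in Ad-EGFP livers, with a log2 fold change of 0.49 ± 0.15 (adjusted p = 0.0531, edgeR). Its groups did not overlap. DESeq2 called it (adjusted p = 0.0252), as did edgeR without Ad-EGFP replicate 2 (adjusted p = 0.0214), without the filter on low counts and with the replicate block.

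Fcer1g, the gamma chain that these Fc receptors need for signalling, had 42.3, 32.05 and 34.5 CPM in Ad-Dyrk1b livers and 30.0, 31.4 and 44.9 CPM in Ad-EGFP livers, a log2 fold change of 0.03 ± 0.16 (adjusted p = 0.911, edgeR), and its difference from the receptors was not tested. Of 10 other Fc receptor and downstream signalling genes tested, 2 were higher and 0 lower (edgeR; 5 higher and 0 lower at an unadjusted p under 0.05). Fcgr4, another activating IgG receptor, rose by 0.67 ± 0.13 (adjusted p = 0.00502, edgeR), with 47.9, 43.6 and 48.4 CPM in Ad-Dyrk1b livers and 24.1, 33.3 and 30.3 CPM in Ad-EGFP livers. Fcgr2b, the inhibitory receptor, rose by 0.39 ± 0.11 (adjusted p = 0.0405, edgeR), and stayed called only when the removed library was replicate 2 of either group. Ad-EGFP replicate 1 was the lowest library for all 10 of these genes.

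The remaining shared genes were not called. Cybb, the catalytic subunit of the phagocyte NADPH oxidase, had 70.4, 68.1 and 68.2 CPM in Ad-Dyrk1b livers and 33.8, 59.2 and 59.4 CPM in Ad-EGFP livers, with a log2 fold change of 0.44 ± 0.19 (adjusted p = 0.169, edgeR). Ptprc, the leukocyte antigen CD45, had 43.0, 40.3 and 46.0 CPM in Ad-Dyrk1b livers and 22.5, 33.5 and 40.0 CPM in Ad-EGFP livers, with a log2 fold change of 0.43 ± 0.18 (adjusted p = 0.146, edgeR). In both genes the groups did not overlap, and Ad-EGFP replicate 1 lay below the other controls. Ptprc was called without Ad-EGFP replicate 3 (adjusted p = 0.0455, edgeR). Mpeg1, the pore-forming perforin-2 of macrophages, had a log2 fold change of 0.28 ± 0.16 with groups that did not overlap. Laptm5 (a lysosomal membrane protein), Tyrobp, Csf1r (the receptor for macrophage colony-stimulating factor) and Aif1 (the actin-binding protein IBA1) had values of 0.41 ± 0.24, 0.29 ± 0.17, 0.22 ± 0.18 and 0.22 ± 0.29 with overlapping groups. The other 5 NADPH oxidase genes had 0 called in either direction by edgeR and by DESeq2 (1 higher and 0 lower at an unadjusted p under 0.05).

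Csf1, the main ligand of the receptor encoded by Csf1r, was itself higher. It had 31.4, 23.9 and 26.4 CPM in Ad-Dyrk1b livers and 20.03, 18.8 and 17.6 CPM in Ad-EGFP livers, and rose by 0.53 ± 0.13 (adjusted p = 0.0206, edgeR). Removing Ad-Dyrk1b replicate 1, or Ad-EGFP replicate 3, ended this call (edgeR adjusted p up to 0.0836). Csf2rb, the signalling chain of the receptors for interleukin 3, interleukin 5 and GM-CSF, rose by 0.69 ± 0.18 (adjusted p = 0.0265, edgeR), a call lost without any 1 Ad-Dyrk1b library or without Ad-EGFP replicate 3. Il34, the other ligand of the same receptor as Csf1, had a log2 fold change of 0.16 ± 0.30 (adjusted p = 0.763, edgeR).

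Neither gene of lipid-associated macrophages was called (edgeR and DESeq2; 0 also at an unadjusted p under 0.05). Trem2, a receptor for lipids, had 4.42, 3.05 and 5.06 CPM in Ad-Dyrk1b livers and 3.44, 7.11 and 3.17 CPM in Ad-EGFP livers, with a log2 fold change of -0.13 ± 0.33 (adjusted p = 0.821, edgeR). Gpnmb, a glycoprotein of lipid-laden and other activated macrophages, had 18.1, 20.1 and 13.6 CPM in Ad-Dyrk1b livers and 11.2, 34.0 and 19.9 CPM in Ad-EGFP livers, with a log2 fold change of -0.33 ± 0.40 (adjusted p = 0.648, edgeR). Ad-EGFP replicate 2 was the highest library for both, and without it both log2 fold changes were above 0, at 0.33 and 0.15. Of 13 other genes reported in such macrophages, which other liver cells also express, 2 were higher and 1 lower by edgeR, and 8 were higher and 1 lower by DESeq2. Lpl, lipoprotein lipase, rose by 1.10 ± 0.13 (adjusted p = 0.000165, edgeR), Cd9, a tetraspanin, rose by 0.63 ± 0.16 (adjusted p = 0.0273, edgeR) and Cd63, a tetraspanin of lysosomes, fell by 0.91 ± 0.12 (adjusted p = 0.000569, edgeR). Cd9 stayed called only when the removed library was Ad-Dyrk1b replicate 3 or Ad-EGFP replicate 2.

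Resident and recruited genes can be set side by side, although some, such as Lyz2 of macrophages and neutrophils, are not limited to 1 role. Among all tested genes 7.36% were called higher and 49.4% had a log2 fold change above 0. Of 10 tested Kupffer cell genes 1 was called, with 9 above 0 and a median of 0.19. Of 10 tested monocyte, recruited myeloid and neutrophil genes 2 were called, with 9 above 0 and a median of 0.35. Taken apart, the medians were 0.21 for the 7 monocyte and recruited myeloid genes and 0.37 for the 3 neutrophil genes, and leaving out Ad-Dyrk1b replicate 3 gave a neutrophil median of -0.21. Leaving out Ad-EGFP replicate 1 gave 1.18, and leaving out Ad-EGFP replicate 2 gave -0.048. The mean centred log2 CPM of the Kupffer cell genes was 0.23, 0.02 and 0.16 in Ad-Dyrk1b livers and -0.53, -0.12 and 0.24 in Ad-EGFP livers. For the monocyte and recruited myeloid genes it was 0.13, 0.07 and 0.27 in Ad-Dyrk1b livers and -0.38, -0.23 and 0.14 in Ad-EGFP livers. In both, the highest Ad-EGFP library lay within or above the range of the Ad-Dyrk1b libraries. That library was Ad-EGFP replicate 3 in each case. There Marco had 178 CPM, against 16.9 to 45.3 CPM in the other libraries, and Lyz2 had 179 CPM, against 79.4 to 107 CPM. Levels without Marco or Lyz2 were not computed, so the overlap may rest on single genes. The difference between the roles was not tested.

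Genes that work with the described ones were also counted. Of 8 tested scavenger receptor genes outside the set, 2 were higher and 0 lower (edgeR; 4 higher and 1 lower at an unadjusted p under 0.05). Colec12, a collectin scavenger receptor of endothelial cells, rose by 0.76 ± 0.13 (adjusted p = 0.00228, edgeR). Scarb1, the receptor for high-density lipoprotein that hepatocytes also carry, rose by 0.43 ± 0.11 (adjusted p = 0.0232, edgeR), and lost its call without Ad-EGFP replicate 1 and without either of Ad-Dyrk1b replicates 2 and 3. Of 8 tested integrin partners and ligands 1 was higher and 0 lower, also before adjustment, namely Itga4, the alpha 4 chain that binds VCAM1, which rose by 0.57 ± 0.13 (adjusted p = 0.0171, edgeR) and stayed called only when the removed library was Ad-Dyrk1b replicate 1 or Ad-EGFP replicate 2. Of 8 genes of lipopolysaccharide and nucleic acid sensing, 0 were called by edgeR and 0 by DESeq2 (2 higher and 0 lower at an unadjusted p under 0.05). Tlr4, the receptor with which CD14 works, had a log2 fold change of 0.53 ± 0.24 (adjusted p = 0.172, edgeR). Of 5 tested macrophage activation genes edgeR called 0 and DESeq2 0 (1 higher and 0 lower at an unadjusted p under 0.05), and Nos2, Il6, Il10, Retnla and Il12b had too few counts to be tested. Il1b, an inflammatory cytokine, had a log2 fold change of -0.53 ± 0.42 (adjusted p = 0.448, edgeR). Some calls outside the set depended on the tool or scaling: limma-trend on FPKM did not call Fcna, Siglec1, Fcgr2b, Csf1, Csf2rb, Cd9, Scarb1 or Itga4, edgeR without TMM scaling did not call Fcgr2b, Csf1, Csf2rb or Scarb1, and edgeR with the replicate block did not call Fcgr2b (adjusted p = 0.0520).

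Markers of other cells in the tissue moved with some of these results. The 6 sinusoidal endothelial genes were all lowest in Ad-EGFP replicate 1, with summed levels of 58.8 to 84.8 FPKM in Ad-Dyrk1b livers and 41.6 to 64.0 FPKM in Ad-EGFP livers, and edgeR called 0 of them and DESeq2 1 (3 higher at an unadjusted p under 0.05). Of 8 tested T and NK cell genes 6 were lowest in Ad-EGFP replicate 1 and 1 was called, Gzmb (granzyme B), which rose by 1.14 ± 0.14 (adjusted p = 0.000384, edgeR). Their summed level was 24.6 to 36.8 FPKM in Ad-Dyrk1b livers and 15.2 to 22.6 FPKM in Ad-EGFP livers. Erythroid genes, which mark blood in the tissue, summed to 1392, 1623 and 5749 FPKM in Ad-Dyrk1b livers and to 822, 1120 and 1373 FPKM in Ad-EGFP livers. Ad-Dyrk1b replicate 3 was the highest library both for them and for the neutrophil genes. The other libraries differed in order: Ad-EGFP replicate 1 had the lowest erythroid sum but the next highest mean centred neutrophil level, at 0.56. Of 6 dendritic cell, 4 B cell and 6 stellate cell genes tested, edgeR called 0 in each list, while DESeq2 called 1 stellate cell gene lower and 0 in the others, and before adjustment the lists had 0, 1 higher, and 1 higher with 1 lower gene at p under 0.05. Of 5 bile duct genes 1 was higher, Spp1 (osteopontin), which macrophages also express and which rose by 0.85 ± 0.13 (adjusted p = 0.00134, edgeR). The part of these cells in the results for myeloid genes was not tested.

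Among 13 tested transcription factor genes of myeloid cells edgeR called 1 higher and 0 lower (3 higher and 0 lower before adjustment). DESeq2 also called 0 lower in this list and in the further monocyte, Fc receptor, scavenger receptor and integrin lists. The called gene was Klf4, a factor of monocytes that endothelial cells also express, which rose by 1.34 ± 0.25 (adjusted p = 0.00487, edgeR). Spi1, which encodes PU.1, the factor on which all myeloid lineages depend, had 23.0, 19.3 and 20.4 CPM in Ad-Dyrk1b livers and 14.6, 17.3 and 18.1 CPM in Ad-EGFP livers, with groups that did not overlap and a log2 fold change of 0.32 ± 0.13 (adjusted p = 0.134, edgeR). PU.1 binds DNA at purine-rich sites, and the promoters of the genes described here were searched for the letters GAGGAA on either strand. Of the 28 genes with an entry in RefSeq's promoter sequences (GRCm38.p6, the same build as mm10, 250 bases before to 50 after a start site), 60.7% held the letters in at least 1 window, against 30.3% of the tested genes with an entry. Counted by window, the shares were 58.8% of 34 windows and 26.5% of those of tested genes. The longer run GAGGAAGT, which contains the shorter one, occurred in 10.7% of the 28 genes, namely Ly6c2, S100a8 and Ly6g, and in 3.80% of the tested genes. TTGCGCAA, a C/EBP site, occurred in 0 of the 28 and 0.324% of the tested genes. The 28 genes include Timd4 and Ly6g, which were not tested.

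The promoters of the called genes with an entry are shown because these genes were called higher. Msr1, also called, has no entry. Each promoter is printed 5′ to 3′ on the strand of the gene, with GAGGAA or its reverse complement in capitals. That of Plac8 is at chr5:100572156-100572455, that of Fcgr1 at chr3:96293920-96294219, that of Cd68 at chr11:69666121-69666420 and that of Ly6c2 at chr15:75111922-75112221, all on the minus strand. Plac8 and Ly6c2 have a second window, not shown, which holds 0 matches in Plac8 and 2 in Ly6c2.
Plac8: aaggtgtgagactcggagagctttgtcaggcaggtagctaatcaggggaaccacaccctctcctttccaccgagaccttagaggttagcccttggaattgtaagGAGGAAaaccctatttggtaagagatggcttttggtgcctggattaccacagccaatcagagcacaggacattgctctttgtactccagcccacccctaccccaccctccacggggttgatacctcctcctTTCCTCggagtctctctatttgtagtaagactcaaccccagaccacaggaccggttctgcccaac
Fcgr1: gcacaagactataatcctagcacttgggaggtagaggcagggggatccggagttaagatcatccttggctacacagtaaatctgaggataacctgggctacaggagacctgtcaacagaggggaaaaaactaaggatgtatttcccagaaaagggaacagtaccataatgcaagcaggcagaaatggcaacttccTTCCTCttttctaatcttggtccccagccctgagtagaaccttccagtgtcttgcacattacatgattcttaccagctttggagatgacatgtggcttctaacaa
Cd68: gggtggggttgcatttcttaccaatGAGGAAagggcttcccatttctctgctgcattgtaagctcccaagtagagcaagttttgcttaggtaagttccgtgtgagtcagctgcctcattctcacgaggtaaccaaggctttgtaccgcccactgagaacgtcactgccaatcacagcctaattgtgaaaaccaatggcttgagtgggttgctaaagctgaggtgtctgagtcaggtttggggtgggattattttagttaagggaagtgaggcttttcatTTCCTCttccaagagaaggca
Ly6c2: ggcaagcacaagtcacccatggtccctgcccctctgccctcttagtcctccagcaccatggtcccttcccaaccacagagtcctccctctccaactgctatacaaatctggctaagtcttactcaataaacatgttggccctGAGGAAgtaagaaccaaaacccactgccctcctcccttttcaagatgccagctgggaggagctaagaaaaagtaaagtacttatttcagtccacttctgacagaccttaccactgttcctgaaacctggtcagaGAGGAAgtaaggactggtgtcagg
In Plac8 the matches begin at -146 on the sense strand and at -15 on the antisense strand, counted from the start site. In Fcgr1 the 1 match, on the antisense strand, begins at -55. In Cd68 they begin at -225 on the sense strand and, inside the transcript, at 30 on the antisense strand. In Ly6c2 both are on the sense strand, at -108 and 27, and both are followed by GT. Genes that were not called differed: Clec4f has no match in its window, while Itgam has 3 and Vsig4 has 2. In all, 17 of the 28 genes held the letters, and whether matches go with calls was not tested. These matches are letters in a window and do not show binding.

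The authors' deposited table lists an adjusted p under 0.05 for 6 of the 35 genes, namely Clec4f, Msr1, Plac8, Cd68, Fcgr1 and Fcgr3. The test behind that column is not stated in the table. The smallest of these adjusted p-values in the authors' deposited table were 7.86e-05 for Msr1 and 9.61e-05 for Plac8, the same genes that had the smallest p here.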

How the data were processed

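Liver mRNA of C57 mice was sequenced in 6 libraries, 3 from animals infected with Ad-Dyrk1b and 3 with Ad-EGFP. Per the file headers, the deposited table gives raw read counts for each gene and library. Beside the counts stand the authors' FPKM values and group means, and the authors' comparison as a log2 fold change with a p-value and a false discovery rate. Per the submitters' processing notes the build was mm10 and DESeq2 was used. For the aligner, counting tool, annotation and strand setting, nothing is stated (not given in the sources used here). Groups and columns were assigned by title and column name.

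Counts were tested with edgeR 4.0.16 (R 4.3.3): filterByExpr (minimum count 10, minimum total 15), TMM scaling and the robust quasi-likelihood F-test (two-sided), with Benjamini-Hochberg adjustment over 13201 genes. Values after ± are standard errors, computed from edgeR's fitted coefficient and F statistic, unless marked SD. A floor of 3 counts is 0.150 to 0.173 CPM by raw library totals, without the TMM scaling of the other CPM values, and covers counting error only. The fit was tested on simulated data. Coordinates are from GENCODE M21 (mm10). The alternatives were DESeq2 1.42.0, limma 3.58.1 (voom, and trend on log2(FPKM + 1) and log2(FPKM + 0.1)), library sizes without TMM, no filter, the replicate number as a block, and each library left out. The members and lists were chosen with earlier results of these data known, and the gene lists of other cells and pathways were written from textbook knowledge. All members are named; from each other list up to 4 genes with the smallest p could be named, and genes of counts of 5 or fewer. Values of some genes counted in these lists are not reported here.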

Additional observations from a re-analysis of the deposited data

How the results depend on the processing

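Of 429 recomputed log2 fold changes of single genes over 13 settings, 366 kept their direction and side of the threshold, 15 lost the call, 14 gained one and 34 changed sign. The sign changes fell on 12 genes, 0 of which were called. The calls for Msr1, Plac8 and Fcgr1 held under all 13 settings. Members called higher numbered 3 without TMM, 8 with DESeq2 and 8 with the replicate block, and Kupffer cell genes called higher numbered 2 with DESeq2 and 2 with the replicate block. With 1 library left out these counts were 3 to 6 and 1 to 2. Same-numbered libraries deviated together at r = 0.02, 0.17 and 0.11, and libraries with different numbers at r = -0.21 to 0.085. Whether the numbers pair the libraries was not tested. Of all genes, 694 were called higher and 1051 lower without TMM. In limma-trend 566 were higher and 712 lower at a pseudocount of 1, and 569 higher and 725 lower at 0.1. With 1 library left out, 612 to 800 were higher and 294 to 461 lower. Leaving out TMM moved the median of all genes by -0.0846, and limma-trend by -0.0587 and -0.0775. The cause of these changes was not tested.

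Without TMM, and with that shift of -0.0846 in all genes, the log2 fold change was -0.070 for Vsig4, -0.00819 for Adgre1, -0.075 for Spic, -0.073 for Itgax and -0.046 for Fcer1g. In limma-trend at pseudocounts of 1 and 0.1 FPKM it was -0.067 and -0.070 for Vsig4, and -0.036 and -0.037 for Fcer1g. With 1 library left out, values ran from -0.067 to 0.12 for Vsig4, -1.54 to 0.77 for Marco, -0.25 to 0.44 for Adgre1, -0.30 to 0.42 for Spic, -0.59 to 0.030 for Lyz2, -0.22 to 0.40 for Itgam and -0.18 to 0.37 for Itgax. They ran from -0.21 to 1.32 for S100a8, -0.26 to 1.18 for S100a9, -0.092 to 0.24 for Fcer1g, -0.34 to 0.33 for Trem2 and -0.64 to 0.15 for Gpnmb.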

Other observations

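The high Marco level of Ad-EGFP replicate 3 was set beside the rest of that library by a rule chosen after the values of Marco were seen, namely at least 50 counts and at least 3-fold above each of the other 5 libraries. In Ad-EGFP replicate 3 this held for 2 of 13201 genes, Marco and Acod1. Acod1 encodes the enzyme that makes itaconate in activated macrophages. It had 0.780, 0.480 and 0.550 FPKM in Ad-Dyrk1b livers and 0.450, 0.590 and 3.21 FPKM in Ad-EGFP livers. The rule found 14 genes in Ad-Dyrk1b replicate 3, among them the haemoglobin genes Hba-a1, Hba-a2, Hbb-bs and Hbb-bt, and 0 genes in each of the other 4 libraries.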
